A study of Homo sapiens with 5 samples.

Results

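The translation elongation factor genes EEF1A2, EEF1A1, EEF1B2, EEF1D, EEF1G, EEF2 and EEF2K were compared between drug-tolerant and parental PC9 cells. They were found by symbol in the authors' deposited table, where 6 of the 7 genes have a row among 27477 genes, and EEF1G was not analysed here. EEF1A2 was chosen by its low value in drug-tolerant cells in this same comparison, so the members' values are a description, and a p printed for EEF1A2 comes from the comparison that chose it and supports nothing. PC9 is an established human non-small-cell lung cancer line whose growth depends on mutant EGFR. The 3 parental libraries were taken as untreated from their titles, since GEO prints the same treatment text for every sample. The 2 drug-tolerant libraries came from PC9 cells kept in 50 nM gefitinib, an inhibitor of the EGFR kinase, over 6 days, after which they had 3 days of growth medium. RNA was taken with TriZol and sequenced after a stranded mRNA library kit. The labels do not say whether replicates were separate cultures, so errors cover only how these libraries differ, which may be technical variation.

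During elongation, eEF1A carries each aminoacyl-tRNA to the ribosome as a complex with GTP. The eEF1B complex, with subunits encoded by EEF1B2, EEF1D and EEF1G, reloads eEF1A with GTP, and eEF2 moves the ribosome on by a codon. EEF2K is the kinase that phosphorylates eEF2 and slows this step. EEF1A1 is used by most tissues, while EEF1A2 encodes a closely related protein that normally takes its place in neurons and in striated muscle and that is expressed in some carcinomas. The mRNAs of EEF1A1, EEF1B2, EEF1G and EEF2 belong to the 5′TOP class, whose first bases are a C and a run of pyrimidines and whose translation is under the control of mTOR.

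The start regions of 4 members are shown, those of 5′TOP members and that of the kinase. The start reference used had no entry for EEF1A2, and no start is shown for EEF1D. Each run covers 40 bases before the annotated start and 20 bases from it, 5′ to 3′ on the strand of the gene, from RefSeq on GRCh38.p14. Capitals mark TATA before the start and an unbroken pyrimidine run that begins with C at the start itself. The positions are chr6:73521013-73521072 on the minus strand for EEF1A1, chr2:206159855-206159914 on the plus strand for the downstream of the annotated EEF1B2 starts, chr19:3985444-3985503 on the minus strand for EEF2 and chr16:22206238-22206297 on the plus strand for EEF2K.
EEF1A1: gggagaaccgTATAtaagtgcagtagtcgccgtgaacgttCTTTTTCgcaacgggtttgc
EEF1B2: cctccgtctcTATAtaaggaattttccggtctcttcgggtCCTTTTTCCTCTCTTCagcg
EEF2: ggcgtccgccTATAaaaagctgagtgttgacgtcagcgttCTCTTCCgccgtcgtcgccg
EEF2K: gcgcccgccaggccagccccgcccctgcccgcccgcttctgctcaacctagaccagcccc
The run is 7 bases long in EEF1A1, 16 in EEF1B2 and 7 in EEF2, and no such run begins at the start of EEF2K or at the upstream start of EEF1B2. A C followed by at least 4 bases that are C or T, read on the gene's strand only, stands at the start in 4.07% of the 35116 starts in the table. TATA, also on the gene's strand, lies 40 to 16 bases before the start in 6.24% of them. The search describes letters in these windows and says nothing of a factor.

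The reads of each library are not columns of the deposited table and were worked out from it. A gene's deposited mean is a sum of whole reads, each worth a fixed step for its library, and the deposited fold change and standard error (SE) then pick out 1 set of reads. This resolved all 12705 genes with a mean under 10 and 7770 of the 7789 genes with a mean from 10 and under 400. It also resolved 11 named genes with a mean from 400 and under 800. The 3 libraries that enter the fit together were taken as parental and the other 2 as drug-tolerant, as their numbers are 3 and 2 in the labels. Positive log2 fold changes therefore mean more RNA in drug-tolerant cells. The libraries are called a, b and c here because they could not be matched to replicate numbers. Normalised reads are reads divided by the library's size factor, and depths were about 14.2 to 21.4 M reads.

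Parental a stood apart from the other parental libraries and lay closer to the drug-tolerant ones. Over the genes with recovered reads and an adjusted p, chi-square per degree of freedom, which is 1 for counting noise alone, was 21.7 between parental a and b and 22.5 between parental a and c. From parental a to drug-tolerant a and b it was 4.79 and 4.40. Parental b and c differed by 1.65 and the drug-tolerant pair by 1.37. Each library was treated as a sample of its own, but these values cannot show whether the libraries came from separate cultures. The split followed transcript length. Reads of protein-coding genes over 4000 nucleotides (nt) divided by those of genes under 2000 nt came to 2.44 in parental a. This ratio was 2.16 in both drug-tolerant libraries, 1.05 in parental b and 1.0 in parental c. Results on the elongation factors are therefore given with and without parental a wherever reads per library were recovered, and its part in the other values was not tested.

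EEF1A2 was the member with the lowest fold change of drug-tolerant over parental cells. EEF1A2 (ENSG00000101210; chromosome 20, 63488012 to 63499322, minus strand, hg38) had 169.6, 310.6 and 349.8 normalised reads in parental a, b and c. In drug-tolerant a and b it had 52.9 and 39.3. These rest on 202, 316 and 336 reads in the parental libraries and on 60 and 31 reads in the drug-tolerant ones. Every drug-tolerant value lay below every parental value, and the lowest parental library held 3.20 times the highest drug-tolerant one. The means were 277 ± 94.8 (SD, n = 3) in parental and 46.1 ± 9.63 (SD, n = 2) in drug-tolerant cells, a 6.00-fold difference or -2.58 on the log2 scale. In bulk RNA, fewer cells with EEF1A2 RNA and less of it per cell cannot be told apart.

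The authors' deposited table lists EEF1A2 at -1.96 ± 0.34 (SE) on the log2 scale, and the adjusted p is 3.96e-05 (DESeq2). That estimate is moderated towards 0 and is smaller than the ratio of the reads. At an adjusted p under 0.05, the authors' deposited table calls 84 of 15223 genes in either direction, or 0.552%, and 44 of them, or 0.289%, lower in drug-tolerant cells. EEF1A2 is the fourth gene of that table by p-value, in the comparison that chose it. It was no longer called when the Wald score was centred at its median and divided by its robust SD, 1.50, where its adjusted p was 0.601. With that scaling no gene was called lower (0%), and 1 gene was called higher.

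**Figure D1:**
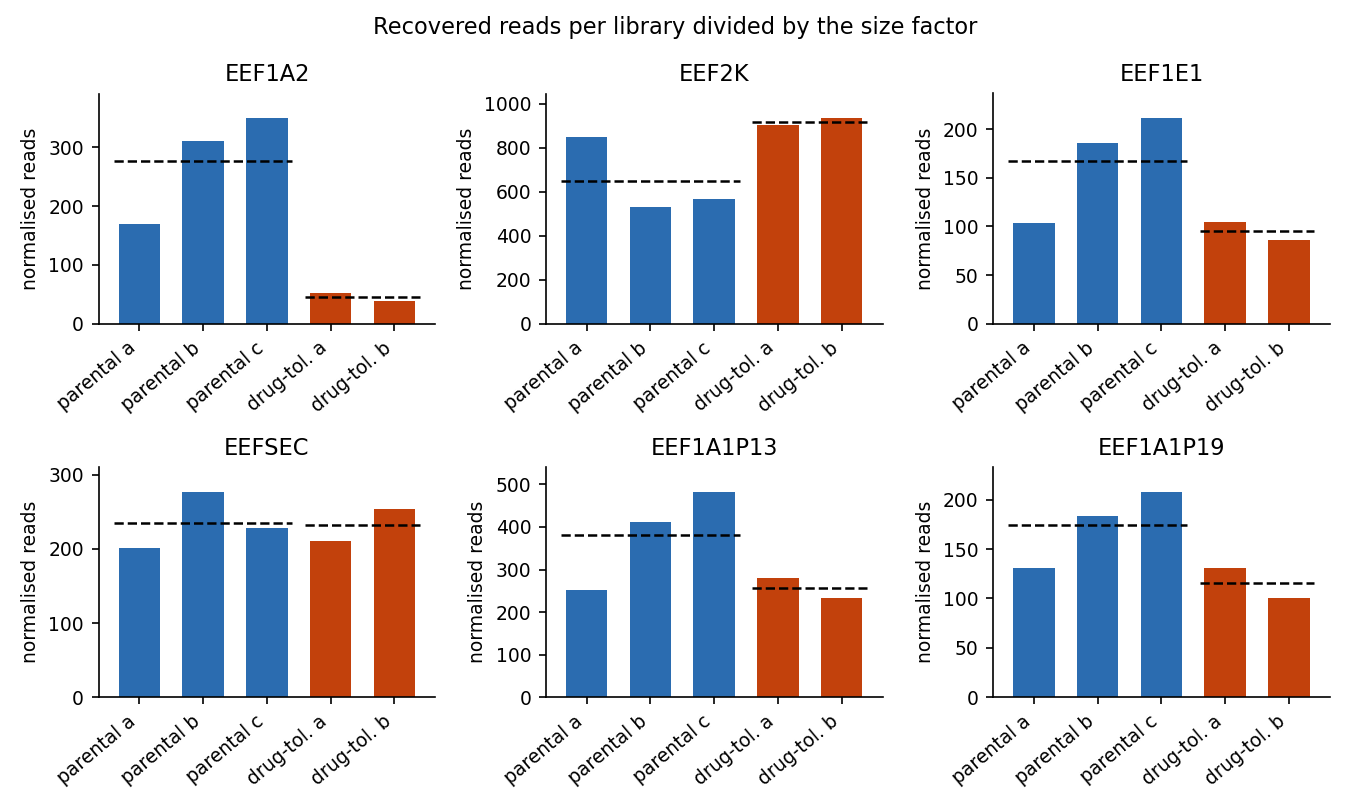
Normalised reads (reads divided by the library's size factor, vertical axis from 0) in each of the 5 libraries for EEF1A2, EEF2K, EEF1E1, EEFSEC and the EEF1A1 copies EEF1A1P13 and EEF1A1P19; bars are single libraries and dashed lines are group means. EEF1A2 is lower in both drug-tolerant libraries (52.9 and 39.3) than in parental a (169.6), whereas in EEF1E1 and in both copies parental a lies close to the drug-tolerant bars.

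EEF1A2 was also low against parental a alone. The log2 ratio of the drug-tolerant mean was -1.88 to parental a and -2.84 to the mean of parental b and c. Among 8233 genes with recovered reads and an adjusted p, both drug-tolerant libraries lay below all parental libraries in 1524 genes, or 18.5%. A gap as wide as 3 times, from the lowest parental to the highest drug-tolerant library, was present in 11 genes, or 0.134%. Reads were not resolved for 6990 of the 15223 genes with an adjusted p. Those 6990 genes, nearly all with a mean of 400 or more, could not enter this count. Of the 11 genes, EEF1A2 had the most reads, and OLR1, KRT34 and COL9A2 came after it. These 3 were named after their values were seen. EEF1A2 was chosen for its low value in these same libraries, so its place among the 11 genes restates that choice. The factor of 3 also lies just under its own gap of 3.20. KRT34, a hair keratin, had 47.9, 50.1 and 51.0 normalised reads in parental and 4.41 and 11.4 in drug-tolerant libraries. Among 633 protein-coding genes with a transcript within 10% of the length of EEF1A2 (2014 nt), the median log2 ratio was 0.03 to parental a and -0.33 to parental b and c. EEF1A2 itself was at -0.96 in parental a against parental b and c, where those genes had a median of -0.34.

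**Figure D2:**
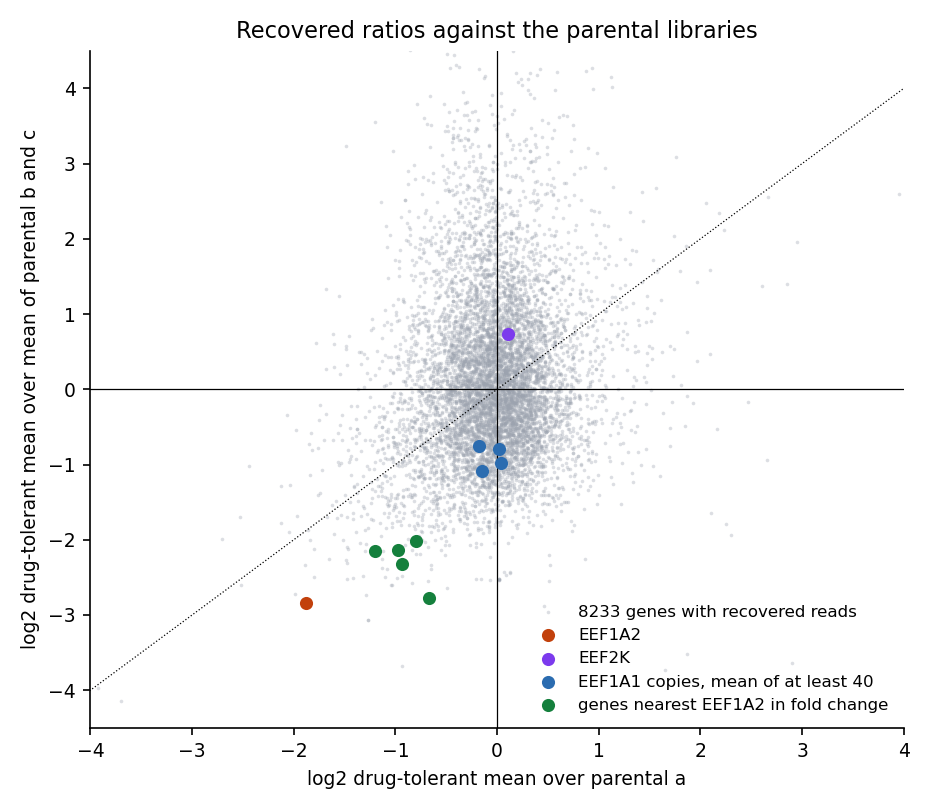
Each grey point is 1 of 8233 genes with recovered reads; the horizontal axis is the log2 ratio of the drug-tolerant mean to parental a and the vertical axis the log2 ratio to the mean of parental b and c, with a pseudocount of 0.5 for the grey points (a few genes lie beyond the axes). EEF1A2 sits at -1.88 and -2.84, low on both axes, while EEF2K (0.11 and 0.74) and 4 EEF1A1 copies lie close to 0 on the horizontal axis only.

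EEF1A1, which encodes the general eEF1A protein, was far more abundant than EEF1A2 in both groups. EEF1A1 (ENSG00000156508; chromosome 6, 73515750 to 73523797, minus strand) has a mean above 800, the upper limit set for resolving single libraries. Group means were solved from its deposited values under equal libraries within a group. They were 207288 normalised reads in parental and 137136 in drug-tolerant cells, 66.2% of the parental mean. The authors' deposited table lists EEF1A1 at -0.51 ± 0.29 (SE) on the log2 scale with an adjusted p of 0.490 (DESeq2), which did not pass the threshold. Its 95% interval runs from -1.07 to 0.05, from the authors' deposited table.

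Per kilobase of the longest coding transcript, the mean level of EEF1A1 was 441 times that of EEF1A2 over all libraries. With the solved group means this ratio was 340 in parental and 1343 in drug-tolerant cells. As a share of the per-length level of the pair, EEF1A2 came to 0.293% in parental and 0.0744% in drug-tolerant cells. The length of EEF1A1 (4441 nt) is that of its longest model, and its 7 coding models run from 635 to 4441 nt, and the 4 coding models of EEF1A2 run from 465 to 2014 nt. Per kilobase of the median coding model the ratio was 216 in parental and 855 in drug-tolerant cells, so its size depends on the models taken. The transcripts of EEF1A2 share none of their 5014 different runs of 31 bases with those of EEF1A1 and its numbered copies (0%). A read of EEF1A2 of that length without mismatches therefore has no second place among those genes.

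The eEF1B exchange factor genes did not pass the threshold. EEF1B2 (ENSG00000114942; chromosome 2, 206159585 to 206162928, plus strand), which encodes the alpha subunit of eEF1B, had solved means of 4858 normalised reads in parental and 2745 in drug-tolerant cells. The authors' deposited table gives it -0.64 ± 0.34 (SE) on the log2 scale, with an adjusted p of 0.474 (DESeq2). EEF1B2 has the shortest transcript of the members, 1098 nt, and 348 protein-coding genes within 10% of that length had a median of -0.51 by the authors' deposited table. With the trend over length and GC content removed, EEF1B2 was at -0.20. EEF1D (ENSG00000104529), which encodes the delta subunit, had solved means of 1646 and 1509 normalised reads. Its deposited log2 fold change was -0.11 ± 0.24 (SE), with an adjusted p of 0.826 in the authors' deposited table (DESeq2). The direction of EEF1D turned to 0.02 once the trend was removed.

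The translocation factor and its kinase lay on opposite sides of 0, and neither passed the threshold. EEF2 (ENSG00000167658; chromosome 19, 3976056 to 3985469, minus strand) had solved means of 33511 normalised reads in parental and 26173 in drug-tolerant cells. Its log2 fold change in the authors' deposited table was -0.31 ± 0.27 (SE), with an adjusted p of 0.588 (DESeq2). EEF2K (ENSG00000103319; chromosome 16, 22206282 to 22288732, plus strand) had 850.4, 531.7 and 565.2 normalised reads in parental a, b and c. It had 902.1 and 934.3 in drug-tolerant a and b. Both drug-tolerant values lay above all parental values, as they did in 1319 of the 8233 genes, or 16%, and parental a lay close below them. Nearly all of the 8233 genes have a mean under 400, below the 757 of EEF2K, so that share comes from less abundant genes.

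The EEF2K means were 649 ± 175 (SD, n = 3) in parental and 918 ± 22.7 (SD, n = 2) in drug-tolerant cells, a log2 ratio of 0.50. The log2 ratio of EEF2K was 0.11 to parental a alone and 0.74 to parental b and c, so its size depended on parental a. In the authors' deposited table the log2 fold change of EEF2K was 0.43 ± 0.28 (SE), with an adjusted p of 0.513 (DESeq2). EEF2K has the longest transcript of the members, 7388 nt, and 739 protein-coding genes within 10% of that length had a median of 0.36 by the authors' deposited table.

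Ordered by the mean level per kilobase of the longest coding transcript, EEF1A1 came first with 40357 normalised reads per kilobase. EEF2 followed with 9664, EEF1B2 with 3655 and EEF1D with 667. EEF2K (102) and EEF1A2 (91.6) came last and close together. Their order depends on the length taken, since per kilobase of the median coding model EEF1A2 had 277 and EEF2K, with 1 model, 102. On the longest model these last places changed between the groups. In parental cells EEF1A2 had 137 normalised reads per kilobase and EEF2K 87.9, and in drug-tolerant cells EEF1A2 had 23.0 and EEF2K 124.

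**Figure D3:**
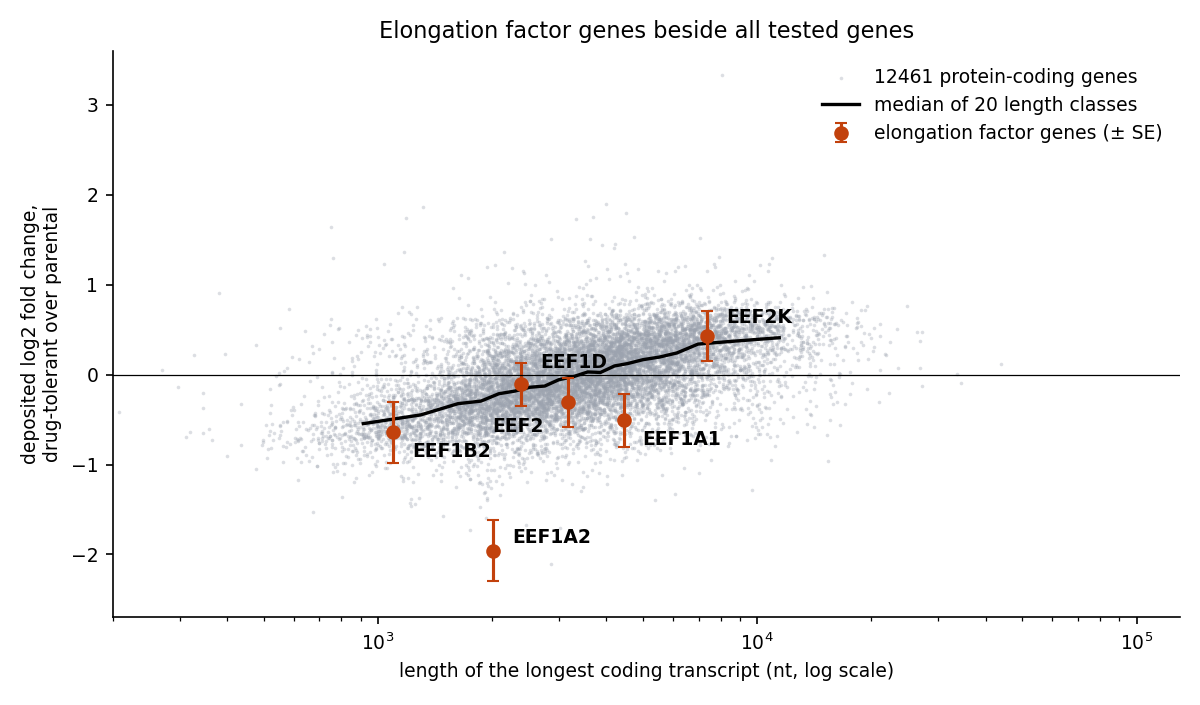
Log2 fold change of drug-tolerant over parental cells in the authors' deposited table (vertical axis) against the length of the longest coding transcript (nt, log scale) for 12461 protein-coding genes; orange points are the 6 elongation factor genes with their SE and the black line joins the medians of 20 length classes. EEF1B2, EEF1D and EEF2K lie near the line, EEF2 and EEF1A1 lie under it by 0.30 and 0.60 once GC content is taken in as well, and EEF1A2 lies far under it.

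Fold changes followed transcript length across the whole table, with a Spearman correlation of 0.54 over 12461 protein-coding genes in the authors' deposited table. This is a description across genes, which share libraries and are not replicates. With the trend over length and GC removed, EEF1A2 was at -1.75 on the log2 scale, again a description of the gene chosen on these values. After Benjamini-Hochberg adjustment of the Wald score, 32 of 12461 genes were called lower, or 0.257%. The other 5 members were uncalled, with values of -0.60 for EEF1A1, -0.30 for EEF2, -0.20 for EEF1B2, 0.02 for EEF1D and 0.15 for EEF2K.

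Numbered copies of the members, processed pseudogenes whose sequence is close to that of the parent mRNA, had 10 rows with a mean of at least 10. Of the 31-base runs of EEF1A1 transcripts, 21.6% also stand in its numbered copies, and 26.8% of those of EEF1B2 stand in its copies. Reads of a parent gene and of a copy may thus be split by the counting, and the values of both are uncertain. In the authors' deposited table EEF1A1P5 had a mean of 33683, EEF1A1P6 9832 and EEF1A1P11 1356, at log2 fold changes of -0.49, -0.63 and -0.69. None of the 10 copies was called (DESeq2), beside 0.552% of all tested genes, and 2 had an unadjusted p under 0.05, beside 10.8%, in the authors' deposited table. Of the copies 9 were below 0, beside 51.6% of all tested genes, and their median was -0.49, beside -0.02, in the authors' deposited table. EEF1A1P12 was the copy above 0, at 0.05, and EEF1A1P4 was at -0.16 in the authors' deposited table.

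Among the copies with recovered reads and a mean over 40, parental a lay beside the drug-tolerant libraries. EEF1A1P13 had 251.8, 411.8 and 483.0 normalised reads in parental a, b and c and 280.4 and 232.0 in drug-tolerant a and b. EEF1A1P19 had 131.0, 183.8 and 208.2 against 130.5 and 100.2. Parental a lay between the drug-tolerant values in EEF1A1P13 and just above the higher of them in EEF1A1P19. Over EEF1A1P13, EEF1A1P19, EEF1A1P25 and EEF1A1P9, the median log2 ratio was -0.06 to parental a and -0.89 to parental b and c. EEF1B2P3, a copy of EEF1B2, had 8.39, 21.6 and 22.9 normalised reads in parental and 10.6 and 8.87 in drug-tolerant libraries. EEF1A1P4 and EEF1A1P12, with few reads, had other orders. EEF1A1P4 had 24.3, 8.85 and 21.9 against 14.99 and 15.2, with parental a the highest library. EEF1A1P12 had 9.23, 15.7 and 19.8 against 21.2 and 10.1, with drug-tolerant a the highest.

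The other genes of elongation and of its control were uncalled in all 6 lists at an adjusted p under 0.05 (DESeq2), beside 0.552% of all tested genes. With so low a share, 0 calls in lists of 5 to 15 genes does not set these lists apart. An unadjusted p under 0.05 in the authors' deposited table was present in 10.8% of all tested genes. It was present in 1 of 12 partners (8.33%), 1 of 12 modifying enzymes (8.33%) and 1 of 5 mitochondrial factors (20%). The counts were 2 of 13 signalling genes (15.4%), 5 of the 15 other 5′TOP mRNAs (33.3%, all 5 lower) and 0 of 11 synthetase genes (0%). Partners of elongation and termination comprise factors such as EEF1E1, GSPT1 and EIF5A2, and 0 of 12 members with an adjusted p were called, and the list median was -0.09 by the authors' deposited table. The members with the smallest p-values were GSPT1, the release factor eRF3a, at 0.51 ± 0.26 (SE), and EEF1E1, a scaffold of the synthetase complex, at -0.63 ± 0.34 in the authors' deposited table. EIF5A2, a paralog of the factor that relieves stalled ribosomes, was at -0.46 ± 0.25 and VARS1, the valyl-tRNA synthetase that binds eEF1, at 0.38 ± 0.21 in the authors' deposited table. Their adjusted p-values lay between 0.461 and 0.490 in the authors' deposited table (DESeq2). EEF1E1 had 103.3, 185.7 and 211.3 normalised reads in parental and 104.1 and 86.2 in drug-tolerant libraries, so the groups overlapped at parental a. EEFSEC, which delivers selenocysteine tRNA, had 200.6, 277.1 and 228.0 against 210.8 and 253.5, with full overlap.

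The enzymes that modify eEF1A and eEF2 were uncalled as well (0 of 12), and their median was -0.21 by the authors' deposited table. EEF1AKMT3, a lysine methyltransferase of eEF1A listed under its older symbol METTL21B, was at -0.63 ± 0.32 (SE) with an adjusted p of 0.461 in the authors' deposited table (DESeq2). Its normalised reads were 173.8, 335.1 and 287.3 in parental and 148.2 and 161.0 in drug-tolerant libraries. The drug-tolerant ones were lower throughout, as in 18.5% of all genes with recovered reads. The log2 ratio of EEF1AKMT3 was -0.17 to parental a and -1.01 to parental b and c. EEF1AKMT2, listed as METTL10, had 104.1, 148.4 and 141.6 against 89.95 and 82.4. DPH6, which completes the diphthamide residue of eEF2, had 99.05, 184.8 and 185.3 against 105.8 and 84.9. Here parental a lay between the drug-tolerant libraries. DPH1, which starts diphthamide synthesis, had 185.5, 183.8 and 222.8 against 261.0 and 275.1. Its drug-tolerant libraries were higher than each parental one, as in 16% of all genes with recovered reads. With parental a alone its log2 ratio was 0.53, and it was 0.40 to parental b and c.

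Of the mitochondrial elongation factors, 0 of 5 were called, and the median was -0.04 in the authors' deposited table. GFM1 and GFM2, the mitochondrial G factors, were at 0.56 ± 0.25 (SE) and 0.40 ± 0.27 in the authors' deposited table. TSFM, the exchange factor, was at -0.47 ± 0.30 and TUFM, the mitochondrial Tu factor, at -0.28 ± 0.29 in the authors' deposited table. TSFM had 208.2, 331.2 and 352.9 normalised reads in parental and 201.1 and 202.8 in drug-tolerant libraries, so parental a again lay beside the drug-tolerant values.

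Signalling genes upstream of elongation gave 0 of 13 calls and a median of 0.03 by the authors' deposited table. RPTOR, the scaffold of mTOR complex 1, was at 0.63 ± 0.26 (SE) and MTOR, its kinase, at 0.88 ± 0.37, with adjusted p-values of 0.392 and 0.414 in the authors' deposited table (DESeq2). EIF4EBP1, an inhibitor of cap-dependent initiation, was at -0.54 ± 0.36 and LARP1, which binds 5′TOP mRNAs, at 0.38 ± 0.26 in the authors' deposited table.

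The other 5′TOP mRNAs had the lowest list median, -0.55, with 14 of 15 genes below 0 and 0 called in the authors' deposited table. Over all tested genes the median was -0.02 and 51.6% were below 0 in the authors' deposited table. TPT1, a small calcium-binding protein, was at -0.95 ± 0.35 (SE) with an adjusted p of 0.303, the smallest of the list in the authors' deposited table (DESeq2). EIF3F and EIF3H, subunits of initiation factor eIF3, were at -0.71 ± 0.33 and -0.69 ± 0.32, and NAP1L1, a histone chaperone, was at -0.54 ± 0.27 in the authors' deposited table. After removal of the trend over length and GC the list median was -0.40. The means of these genes lie above 800, the upper limit set for resolving reads by library, so they were not set against parental a. Among tested genes with a RefSeq start, 725 have a C and at least 4 pyrimidines at a start, as printed above for EEF1A1, and their median was -0.17 in the authors' deposited table. It was -0.01 in the 9284 genes without one in the authors' deposited table, and -0.10 and 0.01 with the trend removed.

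The multi-synthetase complex, which supplies aminoacyl-tRNA to eEF1A, gave 0 of 11 calls and a median of -0.09 by the authors' deposited table. EPRS1, the glutamyl-prolyl-tRNA synthetase, was at 0.60 ± 0.33 (SE) and MARS1, the methionyl-tRNA synthetase, at 0.47 ± 0.26 in the authors' deposited table. IARS1, the isoleucyl-tRNA synthetase, was at 0.48 ± 0.32 in the authors' deposited table.

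**Figure D4:**
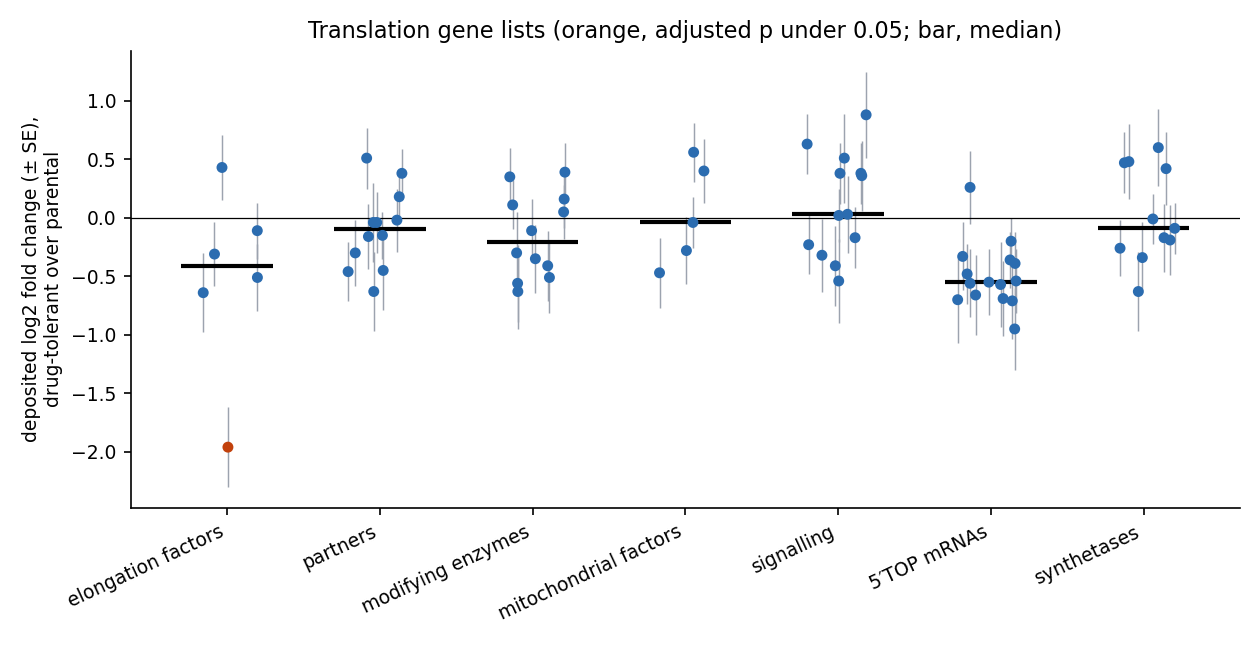
Log2 fold change of drug-tolerant over parental cells in the authors' deposited table with its SE (vertical axis) for the elongation factors and the 6 lists around them; points are genes, black bars are list medians and orange marks an adjusted p under 0.05. EEF1A2 is the orange point at -1.96, and 14 of the 15 other 5′TOP mRNAs lie below 0 without being called.

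The genes around EEF1A2 on chromosome 20 were uncalled. Of the 5 nearest tested genes on each side, 0 of 10 passed an adjusted p of 0.05 (DESeq2), beside 0.552% of all tested genes, and 1 had an unadjusted p under 0.05, beside 10.8%, in the authors' deposited table. Below 0 were 6 of the 10, beside 51.6% of all tested genes, and the median was -0.11 in the authors' deposited table, so these shares lay near those of all genes. On the side of lower coordinates ARFGAP1, YTHDF1, GID8, DIDO1 and AL117379.1 start, each on its own strand, between -570.0 and -226.5 kb from the start of EEF1A2 and ran from -0.24 to 0.61 in the authors' deposited table. On the other side PPDPF starts 21.4 kb from the start of EEF1A2 and was at -0.82 ± 0.36 (SE), with an adjusted p of 0.426 in the authors' deposited table (DESeq2). Further out PTK6, SRMS and FNDC11 were at -0.47, -0.20 and -0.62 and HELZ2 at 0.61 in the authors' deposited table. PTK6, a tyrosine kinase of epithelia, had 266.1, 307.6 and 320.6 normalised reads in parental and 224.0 and 188.9 in drug-tolerant libraries. SRMS, its close relative, had 90.7, 95.3 and 101.0 against 82.9 and 79.9. Both were lower in each drug-tolerant than in each parental library, as was FNDC11, which makes 3 of the 5 neighbours with recovered reads, beside 18.5% of all genes with recovered reads. The gap from the lowest parental to the highest drug-tolerant library was 1.19 times for PTK6, 1.09 times for SRMS and 1.50 times for FNDC11. It was 3.20 times for EEF1A2, which was chosen for its low value in these same libraries, so its wider gap restates that choice. AL117379.1 was higher in each drug-tolerant than in each parental library, as were 16% of those genes.

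FNDC11, a further neighbour, had 55.4, 63.9 and 61.4 normalised reads in parental and 37.0 and 32.96 in drug-tolerant libraries. Its log2 ratio was -0.66 to parental a and -0.84 to parental b and c. HELZ2, a helicase induced by interferon, starts 74.9 kb away and had 638.0, 137.6 and 139.5 in parental and 647.3 and 587.0 in drug-tolerant libraries. Parental a was thus with the drug-tolerant libraries in HELZ2, where the log2 ratio was -0.05 to parental a and 2.16 to parental b and c.

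**Figure D5:**
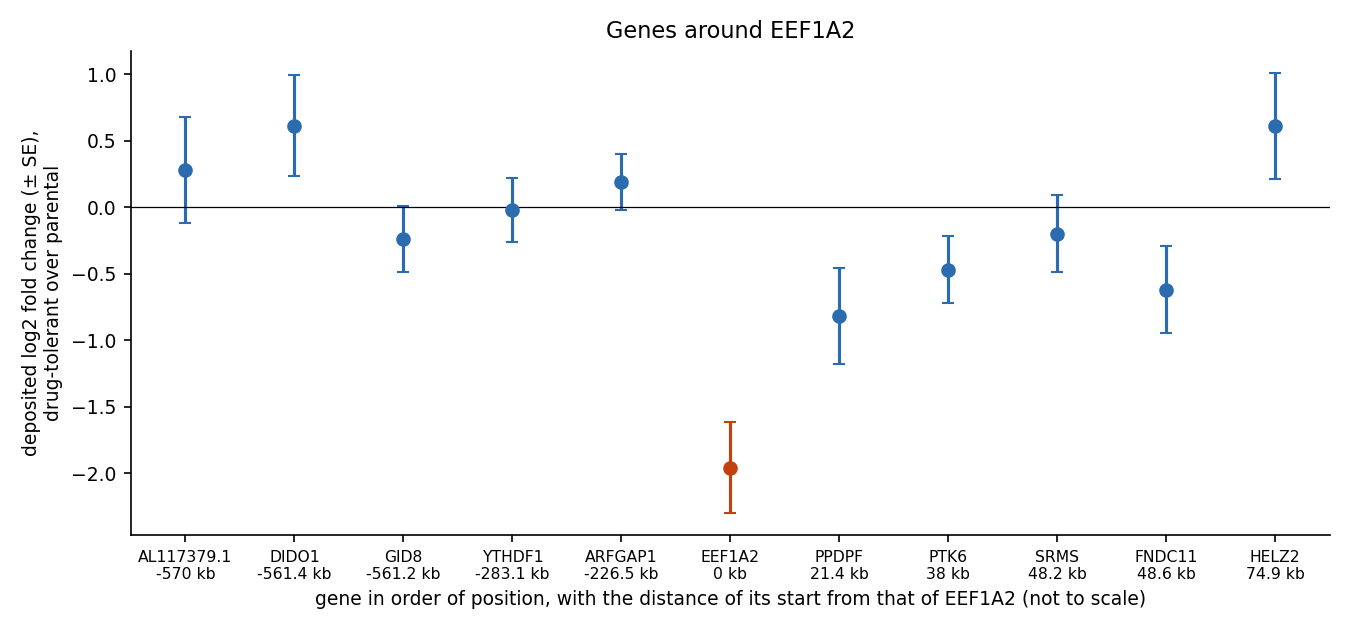
Log2 fold change in the authors' deposited table with its SE (vertical axis) of EEF1A2 (orange) and the 5 nearest tested genes on each side (blue), in order of position with the distance of each start, on the strand of the gene, from that of EEF1A2 in kb (spacing not to scale). EEF1A2 is at -1.96, and its neighbours lie between -0.82 and 0.61.

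The genes most like EEF1A2 in their change were taken as the 5 named genes whose mean lies between 92.2 and 369 normalised reads and whose deposited log2 fold change is nearest. They were ID3 (-1.44), RAB32 (-1.43), ARTN (-1.37), TRAPPC6A (-1.36) and ABCG1 (-1.25) in the authors' deposited table, over the same 5 libraries. The nearest of them was 0.52 log2 units away by the authors' deposited table. ID3, an inhibitor of helix-loop-helix factors, had 146.9, 637.8 and 617.3 normalised reads in parental and 74.1 and 110.3 in drug-tolerant libraries. RAB32, a small GTPase of organelle traffic, had 154.5, 392.1 and 411.2 against 70.5 and 90.01. ARTN, a ligand of the RET receptor system, had 84.8, 147.4 and 179.0 against 45.9 and 27.9. Because the 5 were picked for their fold change, the position of their drug-tolerant libraries below the parental ones, which 18.5% of genes with recovered reads share, restates that choice. In each of them parental a lay between the drug-tolerant libraries and parental b and c. Their log2 ratios to parental a ran from -1.20 to -0.67, above the -1.88 of EEF1A2. EEF1A2 was chosen for its low value in these same libraries, so this difference restates that choice as well.

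Markers of the cell types that normally use EEF1A2 were at or near 0. Of 7 neuroendocrine and neuronal markers, 4 have a row, and the highest mean was 7.80 normalised reads, for SYP in the authors' deposited table. Of 6 striated muscle markers, ACTA1 and CKM have a row, with means of 0.385 and 0.729 in the authors' deposited table. SYP had a mean of 9.71 in parental and 4.93 in drug-tolerant libraries, and CHGA 2.16 and 8.79. Among the epithelial markers KRT8, KRT18, KRT19, EPCAM, CDH1 and EGFR had means from 3778 to 35758 and were uncalled, while the lung markers NKX2-1 and NAPSA were at 2.83 and 2.33 in the authors' deposited table. Among markers of other cells COL1A1 had a mean of 162, PECAM1 of 1616, CDH5 of 253 and ITGAM of 25.9, none of them called in the authors' deposited table.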

How the data were processed

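RNA of 3 parental and 2 drug-tolerant libraries of PC9 was measured. The tools named per the submitters' processing notes are STAR, FastQC and DESeq2, with hg38 as the build; no version, counter or annotation is recorded there. The authors deposited mean levels as a signal (reads over size factors, averaged over libraries). They deposited fold changes with their SE as log2 values, the ratio of both as a Wald score, and p-values before and after adjustment; all of these are columns the authors made.

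Reads per library were recovered as whole numbers that return the deposited mean and, through a negative binomial fit with a normal prior of variance 0.336 on group effects, the deposited fold change and SE. A set was accepted when it missed these by less than 1e-06 in all, a limit chosen after seeing the data, and when the next set missed by over 10 times more. For a few genes with a mean under 30 the mean alone allowed 1 set. For simulated libraries with a mean of 10 to 250, 283 of 284 genes were accepted and all 283 were exact. The planned test for counts was not run, because the table holds no counts. Positions, lengths and GC come from GENCODE 29, in which 27293 of 27477 identifiers were found, and work was done in Python 3.11.15 with numpy 2.4.6, scipy 1.17.1 and pandas 2.3.3.

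The members and lists were chosen with earlier results of these data known. Named genes were the members, every list gene with an adjusted p under 0.05 and otherwise up to 4 of each list with the smallest p and a mean of at least 10. They also included 5 neighbours on each side of EEF1A2, copies of members with a mean of at least 10, and the 5 genes nearest to EEF1A2 in fold change with a mean between 0.5 and 2 times its own. Genes of the modifying enzymes and partners beyond that rule (EEFSEC, EIF5A and similar) were named after their values were seen.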

Additional observations from a re-analysis of the deposited data

How the results depend on the processing

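One member, EEF1A2, was called lower as deposited. That count was also 1 with an adjusted p under 0.01, with adjustment over every gene with a p-value, with adjustment over genes with a mean of at least 50, with fold changes centred at their median, and with the trend over length and GC removed; all of these use the values that chose EEF1A2. It was 0 with the Wald score centred and scaled by its robust SD, where the adjusted p of EEF1A2 was 0.601 and the log2 value -1.95, and the cause was not tested. EEF1D turned from -0.11 to 0.02 (adjusted p 0.988) with the trend removed. Across these alternatives no other member, list gene, copy or neighbour was called. With the trend removed only protein-coding genes were adjusted, so rows of other types, such as pseudogenes, could not be called there. EEF1A1P9, EEF1B2P3, EEF1A1P4, EEF1A1P12 and AL117379.1 have means under 50 and were outside the adjustment over means of at least 50. Leaving out each library in turn, the log2 ratio of mean reads ran from -2.84 to -2.38 for EEF1A2 and from 0.38 to 0.74 for EEF2K. Against parental a alone, a comparison chosen after seeing the data, it was -1.88 and 0.11, where 3 libraries gave -2.58 and 0.50. Both kept their direction with reads scaled to the recovered total. The other filters on means removed no list gene, so they could not change a list median. No paired analysis was possible because the deposited table carries no replicate numbers and the recovered libraries could not be matched to them. The alternatives planned for counts were not run. EEF1A1, EEF2, EEF1B2 and EEF1D have means above 800, the upper limit set for recovery. Their reads per library were therefore not resolved, and their dependence on parental a is unknown.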
